A study of Mus musculus with 28 samples.

Results

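Oxidative phosphorylation is carried out in the inner mitochondrial membrane by 5 complexes, and the mRNAs of their nuclear-encoded subunits were followed here through quiescence, proliferation and early differentiation of mouse muscle stem cells. Members were taken by gene symbol: every row present in all 4 deposited expression tables whose name starts with Nduf, Sdha to Sdhd, Uqcr, Cyc1, Cycs, Cox4 to Cox8 or Atp5, without pseudogene and Riken names. This gave 94 genes of 22552. By textbook function, 36 encode subunits of complex I, 4 of complex II, 9 of complex III, 19 of complex IV (Ndufa4 and Ndufa4l2 included) and 15 of complex V, and Cycs encodes the carrier cytochrome c. The other 10 carry such a name without being subunits, mostly assembly factors (Ndufaf1 to Ndufaf4, Sdhaf1, Sdhaf2, Cox7a2l, Atp5s, Atp5sl and Cox4nb). Symbols were the only criterion for a member, though the set was chosen with earlier results of these data known.

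Complex I (NADH dehydrogenase) and complex II (succinate dehydrogenase) feed electrons into the chain, complex III passes them through cytochrome c to complex IV (cytochrome c oxidase), and complex V (ATP synthase) uses the resulting proton gradient to make ATP. Quiescent satellite cells are known for few mitochondria, and both proliferation and myogenic differentiation are known to raise mitochondrial content. Several complex IV subunits have paired forms, one broadly expressed and one found mainly in striated muscle (Cox6a2, Cox7a1, Cox8b) or in other settings (Cox4i2 and Ndufa4l2, which respond to low oxygen and are abundant in lung and in vessel-wall cells).

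Satellite cells, the Pax7-positive stem cells of skeletal muscle, came from mice of C57Bl/6 background. WT mice were compared with SIRT1mKO mice (called KO here), in which a Cre knocked into the Pax7 gene removes the floxed exon 4 of Sirt1, the gene of an NAD+-dependent deacetylase. Whether WT animals carry Cre or a floxed allele is not given in the labels. FI cells were sorted and not cultured, Cul cells were grown in 20% fetal bovine serum with 12.5 ng/ml bFGF, and Diff cells spent 24 h in 2% horse serum. Ages and the number of animals behind a library are not given, and nothing says that libraries came from separate animals, so the p-values rest on the spread among these libraries, which may be technical. PolyA RNA was sequenced in 18 libraries, deposited as 4 tables: FI (3 KO and 3 WT), Cul (2 and 2), Diff (2 and 2) and WT states (2 WT_Cul and 2 WT_FI). Within a table a library is named by its group and the table's own index, counted from 0.

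Libraries held 28010691 to 65324684 fragments in the FI table, 75674366 to 82590642 in Cul, 71858446 to 82825550 in Diff and 24254119 to 31643216 in WT states. Levels are given as CPM (fragments scaled to library size, with TMM factors within a table) and, between genes, as the authors' FPKM, which also divides by length. All 7 satellite cell markers were measured in every library, with summed levels of 4707 to 6523 CPM in the FI table and 1475 to 2189 CPM in the other tables. Markers of other cells were present too. The 7 fibroblast genes summed to 4167 to 6396 CPM in the FI table. This was above the satellite sum in KO_FI 0 (6396 against 5276 CPM) and WT_FI 2 (4798 against 4707) and below it in the other FI table libraries. In WT_FI 0 and 1 of WT states they summed to 28675 and 19811 CPM, above the satellite sum there. Total Sirt1 mRNA did not pass the test in any KO comparison (log2 change −0.30 in FI, −0.68 in Cul, −0.19 in Diff; edgeR adjusted p 1.00 each), and a gene total does not check the loss of 1 exon. Some features set libraries apart. Library 1 of both Diff groups and WT_Cul 0 of WT states had high differentiation genes, and library 0 of both FI groups together with all 4 WT states libraries gave very low values for some members; both are described below.

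To show the DNA in front of these genes, promoter windows were read from RefSeq (build GRCm38.p6) for the 77 members with an entry in the promoter table. Of these, 18 (23.4%) held the NRF1 motif (the letters in capitals in the Sdha and Ndufb4 windows below, with 1 free base) between 250 bases before and 50 bases after the start, on either strand, against 5.19% of all 27025 promoters in the table. The YY1 motif AAGATGGC was found in 11 (14.3%, against 3.19%), the ETS motif CCGGAAGT in 5 (6.49%, against 4.31%) and the E-box CAGCTG in 6 (7.79%, against 18.3%). No match overlapped a match to a different motif. The windows below run from 100 bases before the start through 20 bases from it, 5′ to 3′ along the gene's strand, with matches in capitals. Sdha and Ndufb4 are shown for repeated NRF1 matches, Atp5f1 for YY1, Uqcrh for ETS, Cox8b as a muscle form with an E-box, and Cox5a as a member that rose with culture and holds none of the 4 in this window.
Sdha (chr13:74350221-74350340, minus strand): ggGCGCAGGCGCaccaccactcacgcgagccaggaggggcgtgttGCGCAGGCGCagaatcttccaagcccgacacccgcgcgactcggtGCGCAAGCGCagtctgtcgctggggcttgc
Ndufb4 (chr16:37654349-37654468, minus strand): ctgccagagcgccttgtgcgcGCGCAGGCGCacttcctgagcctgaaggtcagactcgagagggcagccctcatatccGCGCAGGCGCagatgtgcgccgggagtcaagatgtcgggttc
Atp5f1 (chr3:105959244-105959363, minus strand): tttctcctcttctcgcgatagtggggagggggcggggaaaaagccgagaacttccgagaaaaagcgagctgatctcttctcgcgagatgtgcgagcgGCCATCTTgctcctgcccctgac
Uqcrh (chr4:116075051-116075170, minus strand): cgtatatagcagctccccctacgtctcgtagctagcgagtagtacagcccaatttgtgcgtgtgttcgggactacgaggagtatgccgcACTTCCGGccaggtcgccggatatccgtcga
Cox8b (chr7:140900427-140900546, minus strand): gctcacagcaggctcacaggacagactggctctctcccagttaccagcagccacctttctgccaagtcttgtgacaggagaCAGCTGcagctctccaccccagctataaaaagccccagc
Cox5a (chr9:57521132-57521251, plus strand): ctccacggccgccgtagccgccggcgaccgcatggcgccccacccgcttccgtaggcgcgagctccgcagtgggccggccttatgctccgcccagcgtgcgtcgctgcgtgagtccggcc

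Members with and without the NRF1 motif had like median changes in every comparison described below. In WT_Cul against WT_FI the median log2 change was 1.35 over 17 tested members with the motif and 1.29 over 58 without it, and in KO_FI against WT_FI it was −0.25 and −0.24. The other 17 members, Cox4i1, Cox4i2, Ndufa4l2, Cox6a2, Cyc1, Ndufs1, Sdhc and Uqcrq among them, are named without a window. A match is a stretch of letters, not a measured binding site.

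Subunit mRNAs made up 0.602%, 0.881% and 0.723% of fragments in the 3 WT_FI libraries of the FI table and 0.607%, 0.709% and 0.652% in KO_FI. In the Cul table the share was 1.58% and 1.19% in WT_Cul and 1.68% and 1.25% in KO_Cul. In the Diff table it was 1.52% and 2.68% in WT_Diff and 1.62% and 2.30% in KO_Diff. Cultured and differentiating libraries thus all lay above the quiescent ones, across tables that were made separately, while WT and KO ranges overlapped in each state. In the WT states table the share was 0.843% and 0.730% in WT_FI, against 2.22% and 0.928% in WT_Cul, so WT_Cul 1 lay closer to both WT_FI libraries than to WT_Cul 0.

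**Figure D1:**
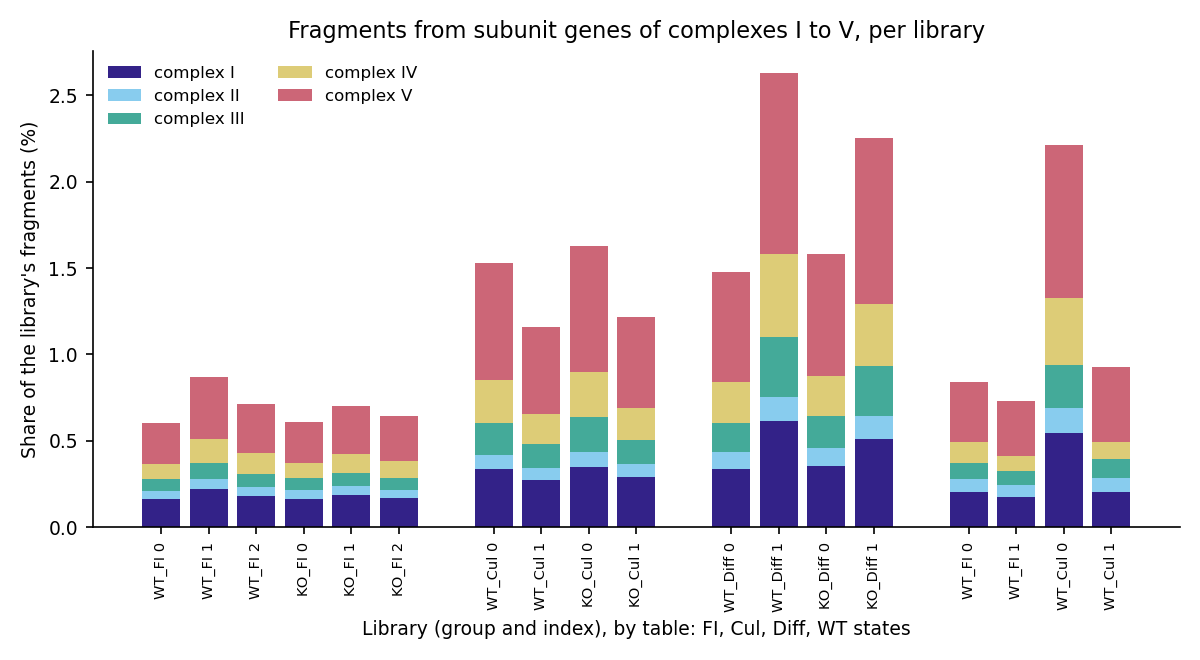
Stacked bars give the percentage of each library's fragments that came from subunit genes of complexes I to V, with the 18 libraries grouped by table. Complex V takes the tallest segment in every bar, and the 3 highest libraries are WT_Diff 1 (2.68% with cytochrome c), KO_Diff 1 (2.30%) and WT_Cul 0 of WT states (2.22%).

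The most abundant members per length were mostly subunits of complexes IV and V. In WT_FI of the FI table, mean FPKM was 539 for Cox4i1, the regulatory subunit of complex IV, 534 for Atp5b, the catalytic beta subunit of ATP synthase, 465 for Cox8a and 416 for Cox6a1. Atp5b led in WT_Cul (1113 FPKM), before Atp5g3, 1 of 3 genes for the c subunit of the rotor (807), and Uqcrq of complex III (731), and in WT_Diff (1517), before Cox6b1 (1265) and Atp5g3 (1235). At the low end, Cox8b (4.20) and Cox6a2 (0.865), both muscle forms, were near the floor in WT_FI. Cox8c was at 0 in all 18 libraries, which allows at most 0.124 CPM in the shallowest library (3 fragments, counting error only), and Cox7b2 was at 0 in 14. These 2 genes did not pass the filter on low counts in any table, nor did Cox4i2 in Diff and Atp5g2 in WT states, so 91 or 92 of the 94 members were tested.

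The switch from quiescence to culture in WT cells was the comparison in which members changed. Of 91 tested, 4 rose and 2 fell in WT_Cul against WT_FI (edgeR quasi-likelihood test, adjusted p under 0.05, adjusted over 14680 genes). Over all genes, 12.6% rose and 16% fell, so the members' shares were below the background in both directions. Estimates leaned upward all the same: 86 of 91 were above 0 and 5 below (48.4% of all genes were below), with a median log2 change of 1.20 against 0.06 over all genes tested. The 2 groups did not overlap for 41 members in the higher direction (background 35.5%) and for 2 in the lower (background 35.4%). An unadjusted p under 0.05 was reached by 20 members, where 44.3% of all genes reached it. The median rests on 1 library: it was 0.10 without WT_Cul 0. DESeq2 called 20 members in place of 6.

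Class medians in this comparison were 1.24 for complex I, 0.72 for II, 1.19 for III, 1.33 for IV, 1.42 for V and 0.88 for the non-subunit members on the log2 scale. Among complex I subunits, 1 of 36 rose. Ndufab1, the mitochondrial acyl carrier protein, stood at 1.67 and 1.82 CPM in WT_FI and 9.72 and 5.06 in WT_Cul (log2 change 2.08 ± 0.57 SE, adjusted p 0.0486). Its level in these libraries is uncertain, as described below. Ndufb6, an accessory subunit, went from 32.0 and 32.3 CPM to 191 and 53.3 (log2 change 1.93, edgeR adjusted p 0.0806). Ndufs1, the largest iron-sulphur subunit, had 144 and 210 CPM in WT_FI and 214 and 248 in WT_Cul (log2 change 0.39, edgeR adjusted p 0.471).

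Neither complex II nor complex III had a member past the threshold. The catalytic subunit Sdha gave 337 and 398 CPM for WT_FI, 442 and 381 for WT_Cul, so its groups overlapped (log2 change 0.16 ± 0.36 SE). Sdhd, which anchors the enzyme in the membrane, did not overlap: 107 and 95.2 CPM against 399 and 191 (log2 change 1.55, edgeR adjusted p 0.0639). Complex III gave a like picture. Its cytochrome c1 gene Cyc1 had 134 and 127 CPM against 539 and 220 (log2 change 1.54, edgeR adjusted p 0.0824). Uqcrq, a small subunit, had 32.8 and 16.1 CPM against 174 and 42.1 (log2 change 2.15, edgeR adjusted p 0.0960).

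Complex IV was the class with calls in both directions. Cox5a, a nuclear-encoded subunit, rose from 47.2 and 39.9 CPM to 385 and 110 (log2 change 2.51 ± 0.67 SE, edgeR adjusted p 0.0461). Cox4i2, the alternative form of Cox4i1, fell from 34.5 and 37.1 CPM to 1.24 and 1.01 (log2 change −4.99 ± 0.44 SE, edgeR adjusted p 0.00962). Ndufa4l2, the alternative form of Ndufa4, fell from 137 and 110 CPM to 6.88 and 4.49 (log2 change −4.44 ± 0.43 SE, edgeR adjusted p 0.00962). Cox4i2 and Ndufa4l2 were the only members that fell with all 4 libraries in edgeR, and both also fell in each alternative. Others joined them in some: Cox6b2 and Ndufv3 without WT_Cul 0 and with the length trend, Cox7a1 in the former, Ndufa1 in the latter, and Cox6b2 with all WT libraries joined. Their partners went the other way without passing: Ndufa4 had 68.1 and 58.6 CPM against 456 and 114 (log2 change 2.17, edgeR adjusted p 0.0743), and Cox4i1 had 289 and 228 against 821 and 260 (log2 change 1.07).

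In complex V, 1 of 14 tested members rose. Atp5g1, another c subunit gene, went from 1.59 and 2.56 CPM to 26.8 and 12.5 (log2 change 3.24 ± 0.61 SE, edgeR adjusted p 0.0211), at levels that are uncertain for the reason given below. Atp5g3 had 282 and 261 CPM against 1467 and 408 without passing (log2 change 1.79, edgeR adjusted p 0.104). The catalytic subunit gene Atp5b had 1301 and 1344 CPM against 3042 and 1787 (log2 change 0.87). Of the non-subunit members, Ndufaf4, a complex I assembly factor, rose from 30.6 and 40.7 CPM to 126 and 84.6 (log2 change 1.56 ± 0.39 SE, edgeR adjusted p 0.0380). Ndufaf1 and Ndufaf2, which act in the same assembly, had log2 changes of 1.52 (edgeR adjusted p 0.0762) and 1.57 (0.0626).

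Which members passed depended on single libraries. WT_Cul 0 exceeded WT_Cul 1 in 90 of 91 tested members, by a median 3.35-fold. Myog, a driver of myoblast differentiation, was at 807 CPM in WT_Cul 0 and 9.05 in WT_Cul 1, and Acta1, skeletal actin, at 1458 and 39.0. Within index 0 the members' median log2 difference was 1.68 (88 above 0, 3 below), and within index 1 it was 0.31 (65 above, 26 below). Without WT_Cul 1, 71 members rose and 2 fell, and without WT_Cul 0, 3 rose and 5 fell. Without WT_FI 0 or WT_FI 1, 1 rose and 2 fell. The part of differentiating cells in these values was not tested. In bulk RNA, fewer cells of a type and less RNA per cell cannot be told apart.

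**Figure D2:**
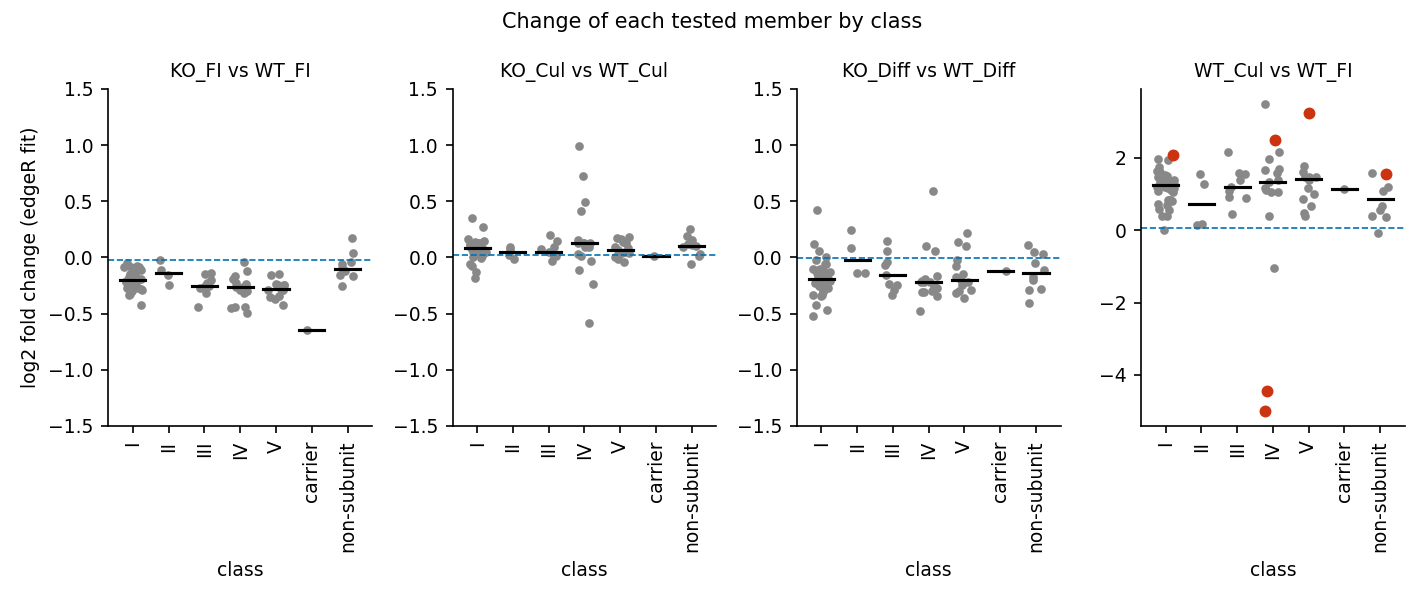
Each point is the log2 fold change of 1 tested member from edgeR, by class and comparison, with class medians as black bars, the median of all tested genes as a dashed line, and members past an adjusted p of 0.05 in red; the right panel has its own scale. Red points occur only in WT_Cul against WT_FI, where 4 lie above and 2 below the dashed line.

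Genes that build or serve the complexes were read from lists of 4 kinds. Of 20 tested nuclear regulators of mitochondrial genes, 4 rose and 1 fell in WT_Cul against WT_FI. Those that rose act on mitochondrial DNA or its transcription, or on nuclear respiratory genes: Peo1, the mitochondrial helicase (log2 change 1.75, edgeR adjusted p 0.0241), Tfam (1.41, 0.0331), Gabpb1 (1.26, 0.0423) and Ssbp1 (1.94, 0.0425). The orphan receptor gene Esrrg fell from 2.55 and 2.81 CPM to 0.520 and 0.316 (log2 change −2.68, edgeR adjusted p 0.0327). Ppargc1a, the coactivator PGC-1alpha, had 10.4 and 22.2 CPM against 2.40 and 5.70 (log2 change −2.01, edgeR adjusted p 0.0753). Nrf1, whose motif was searched above, had 37.3 and 32.1 CPM against 65.4 and 80.1 (log2 change 1.07, edgeR adjusted p 0.0664).

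These counts, and those of the other lists, stand against 12.6% higher and 16% lower over all genes. Of 12 tested complex IV assembly factors 3 rose: the copper chaperone genes Sco1 (log2 change 1.59) and Sco2 (3.98), and Cox10 (1.57) of heme synthesis. Of 15 other assembly factors, a list that shares Sdhaf1 and Sdhaf2 with the members, 2 rose, Atpaf2 (1.84) and Tmem70 (1.78), which act on complex V. Of 9 genes of ADP/ATP exchange and coupling 2 rose, Vdac3 (1.67) and the ADP/ATP carrier Slc25a5 (2.30), and 1 fell, Ckmt2, at under 1 CPM in every library (−3.06). Medians of the 4 lists were 1.06, 1.47, 0.94 and 1.09, each above the 0.06 of all genes, as the members' median was. Expression of the subunits encoded in mitochondrial DNA was not analysed here.

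Cox4i2 and Ndufa4l2 were set beside markers of vessel-wall cells, a list chosen after their values were seen. The 8 pericyte and smooth muscle genes (Rgs5, Kcnj8, Abcc9, Pdgfrb, Higd1b, Acta2, Myh11 and Tagln) summed to 22059 and 30342 CPM in WT_FI of WT states and to 2083 and 1914 in WT_Cul. Their falls were unlike in size. Acta2 went from 8733 and 10292 CPM to 1566 and 954, and Rgs5 from 1057 and 1568 to 1.88 and 15.2. In the FI table the sum was 3332, 3961 and 8220 CPM in WT_FI and 3983, 3487 and 3639 in KO_FI. There Cox4i2 gave 15.3, 13.2 and 26.8 CPM for WT_FI, 16.5, 14.5 and 13.6 for KO_FI. Ndufa4l2 gave 55.8, 54.8 and 114 for WT_FI, 62.8, 67.1 and 62.6 for KO_FI. The library with the highest marker sum, WT_FI 2, was thus also the highest for both genes. In the Cul table the sum was at most 98.2 CPM, with Cox4i2 at 0.304 or less and Ndufa4l2 at 0.944 or less. In Diff the sum was 76.2 and 1466 CPM in WT and 183 and 3100 in KO, of which Acta2 gave 1409 in WT_Diff 1 and 2972 in KO_Diff 1. There Cox4i2 was at 0.174 or less and Ndufa4l2 at 0.669 or less. In KO_Diff 1 Tagln was at 86.5 CPM, Abcc9 at 25.0 and Pdgfrb at 15.5. The remaining markers, Rgs5, Kcnj8, Higd1b and Myh11, were at 0.682 or less in that library. Fibroblast and endothelial markers moved as well in WT_Cul against WT_FI: 6 of 7 and 5 of 7 fell, and fibroblast sums were 983 and 1699 CPM in WT_Cul. The part of other cell types in these values was not tested.

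The paired forms were also compared per length, as the share of the alternative form in the pair's FPKM. Ndufa4l2 made up 21.8% to 47.0% of its pair in the 8 FI libraries and at most 1.48% in Cul and Diff. Cox4i2 made up 3.47% to 12.9% in FI and at most 0.352% elsewhere. The testis-type form Cox6b2 followed the same order at a lower level, with 3.25% to 7.77% in FI and at most 0.740% in Cul and Diff. Ranges of FI and cultured libraries did not overlap for these 3 pairs, in both genotypes.

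The muscle forms differed widely between libraries of the same group. In Diff, Cox6a2 gave 15.9 and 113 CPM for WT libraries 0 and 1, and 11.0 and 124 for KO. Cox8b gave 3.03 and 50.3 against 2.42 and 44.4, and Cox7a1 0.694 and 9.99 against 1.22 and 10.3. Library 1 was high and library 0 low for each gene in both genotypes, so WT and KO overlapped. Shares of the pair were 5.44% and 13.1% in WT and 3.44% and 18.9% in KO for Cox6a2, and 2.70% and 17.7% and 2.10% and 19.6% for Cox8b. Differentiation genes split the same way: Myog gave 61.2 and 2015 CPM for WT, 149 and 3619 for KO, and 11 myofibre genes summed to 98.2 and 9302 and to 224 and 18224. Their part in the members' levels was not tested.

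**Figure D3:**
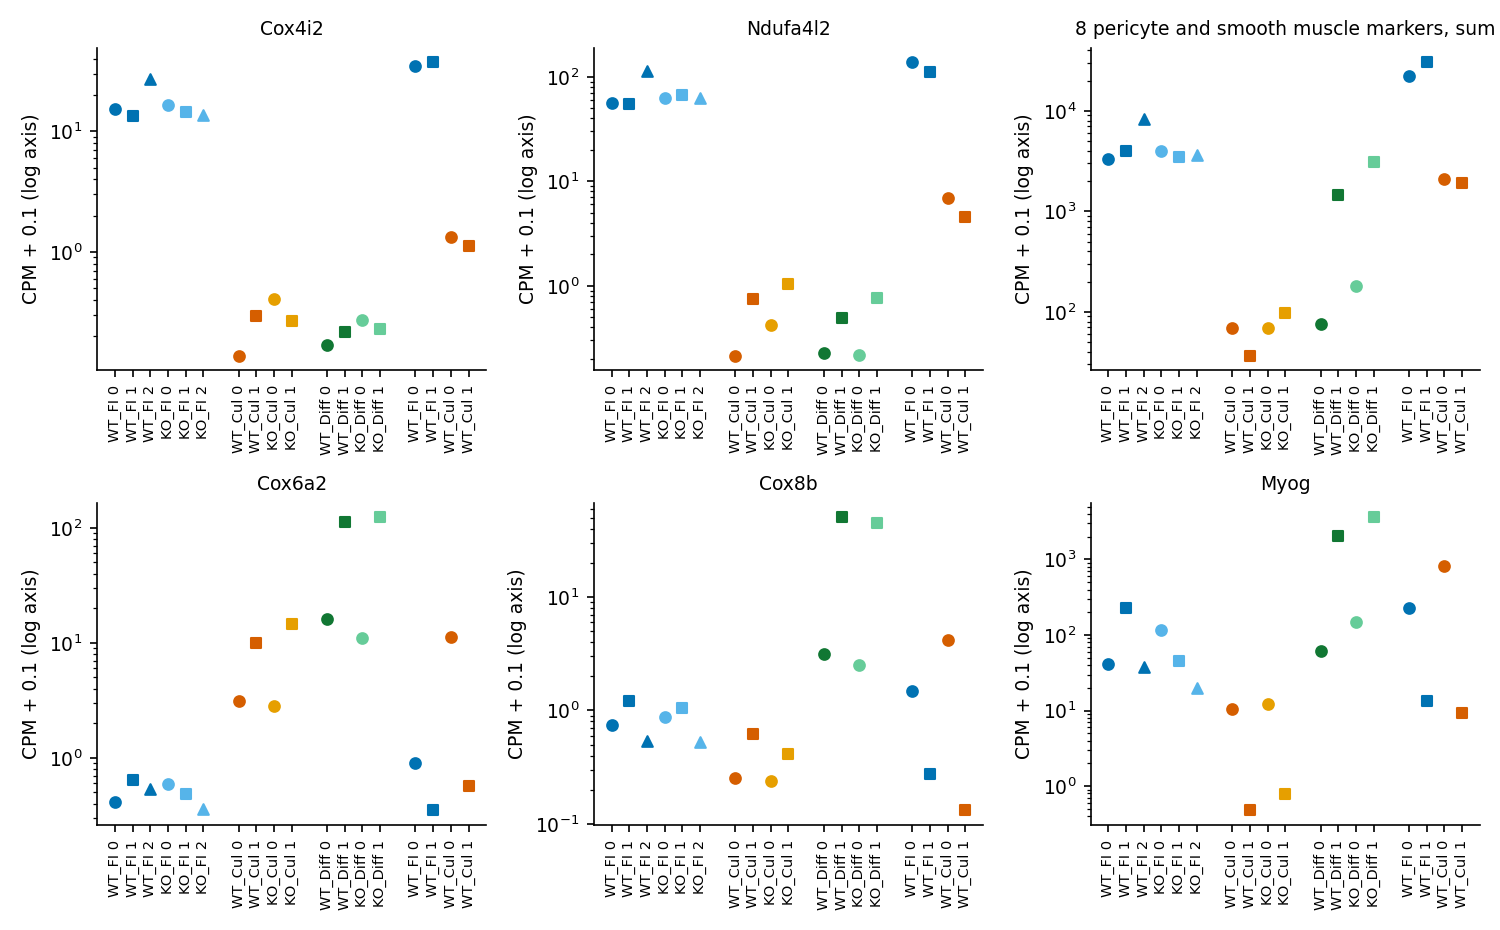
Levels in CPM + 0.1 on a log axis in each library for Cox4i2, Ndufa4l2, the summed pericyte and smooth muscle markers, Cox6a2, Cox8b and Myog, coloured by group and shaped by index. Cox4i2 and Ndufa4l2 are high in FI libraries and low in Cul and Diff. The marker sum is high in FI too. It reaches 2083 and 1914 CPM in WT_Cul of WT states, of which Acta2 gives 1566 and 954. It also reaches 1466 and 3100 CPM in library 1 of WT_Diff and KO_Diff, of which Acta2 gives 1409 and 2972. The lower row is highest in library 1 of both Diff groups (Myog 2015 and 3619 CPM).

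In quiescent cells, no member passed the test between KO_FI and WT_FI. None of 92 tested was called in either direction, as was the case for all 15146 genes (0%; lowest edgeR adjusted p 1.00; DESeq2 called no member either). An unadjusted p under 0.05 was reached by 1 member, against 4.1% of all genes. Estimates were nearly all on the lower side: 90 of 92 were below 0 (55.3% over all genes), and the median log2 change was −0.23 against −0.03. The groups did not overlap for 6 members in the lower direction (background 3.65%) and for 0 in the higher (background 5.57%). Class medians ran from −0.13 in complex II through −0.20 in I, −0.25 in III and −0.26 in IV to −0.28 in V.

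Among the 6 was Atp5b, at 848, 1189 and 903 CPM in WT_FI and 833, 830 and 809 in KO_FI (log2 change −0.25 ± 0.17 SE). Cyc1 had 118, 153 and 117 CPM against 117, 115 and 100 (−0.22). Sdhb, the iron-sulphur subunit of complex II, had 79.3, 105 and 83.5 against 73.3, 79.0 and 74.0 (−0.24). In all 3, WT_FI 1 was the highest library and the other WT_FI libraries lay close to the KO range. The same held for the complex I subunits Ndufa9 (49.9, 53.6 and 46.7 CPM against 45.5, 44.5 and 43.2) and Ndufb10 (66.5, 82.8 and 65.0 against 61.2, 60.7 and 55.5). Cox6b2, at 4.61, 5.51 and 4.41 CPM against 3.67, 3.05 and 3.57, had the largest estimate of the 6 (−0.50 ± 0.21 SE). Sdha showed little difference, with 270, 294 and 254 CPM against 273, 274 and 258 (−0.02 ± 0.11 SE).

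Other named members overlapped. Uqcrq had 42.3, 74.9 and 55.1 CPM against 39.9, 45.6 and 41.5 (log2 change −0.44 ± 0.21 SE), and Cox5a 33.8, 62.9 and 46.3 against 31.5, 36.4 and 37.2 (−0.44 ± 0.23 SE). The median depended on WT_FI 1: without it the members' median log2 change was 0.01. Within index 0 it was −0.02 (41 above 0, 51 below), within index 1 −0.40 (3 above, 89 below) and within index 2 −0.17 (11 above, 81 below). Differentiation genes were also high in WT_FI 1, with Myog at 225 CPM against 40.8 and 37.2 in the other WT_FI libraries and 117, 45.2 and 20.0 in KO_FI. Markers of other cells had medians of −1.13 for erythroid cells (4 of 4 tested below 0), 0.26 for endothelial cells (6 of 7 above 0) and 0.33 for myofibres (7 of 11 above 0), with no gene called. Their summed levels overlapped between the groups, and the part of all these genes was not tested. None of 20 nuclear regulators (median −0.04), 13 complex IV assembly factors (−0.07), 15 other assembly factors (−0.11) or 10 exchange genes (−0.25) was called. The groups did not overlap for Slc25a3, Slc25a4 and Cox17 in the lower direction and for Tmem126b in the higher, against the 3.65% and 5.57% above. The phosphate carrier gene Slc25a3 was at 371, 414 and 335 CPM in WT_FI and 312, 309 and 306 in KO_FI (log2 change −0.27 ± 0.13 SE).

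In proliferating cells the 2 genotypes were compared in the same way. None of 92 tested members was called between KO_Cul and WT_Cul (0% of 13963 genes), and none had an unadjusted p under 0.05 (0.802% of all genes; DESeq2 called none either). The median log2 change was 0.09 against 0.02 over all genes, with 78 of 92 estimates above 0 where 46.8% of all genes were below. The groups did not overlap for 2 members in the higher direction (background 11.8%) and for 0 in the lower (background 11.1%). The 2 were Ndufv3, an accessory subunit of complex I, at 24.4 and 21.9 CPM in WT_Cul and 31.3 and 27.7 in KO_Cul (log2 change 0.35 ± 0.21 SE), and Sdhaf1, an assembly factor of complex II, at 16.0 and 17.3 against 20.0 and 18.0 (0.19 ± 0.23 SE).

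Spread within each genotype was wider than between them. Library 0 exceeded library 1 in 85 of 92 members in WT_Cul, by a median 1.42-fold, and in 87 of 92 in KO_Cul, by 1.40-fold. Atp5b, for example, gave 2259 and 1592 CPM in the WT_Cul libraries, against 2530 and 1675 for KO_Cul (log2 change 0.13 ± 0.34 SE). Cytochrome c, the gene Cycs, had 533 and 299 CPM against 528 and 309 (log2 change 0.01). Within index 0 the members' median difference was 0.07 and within index 1 0.09. None of the 4 pathway lists had a called gene. Their groups did not overlap for 6 genes in the higher direction (Polg2, Cox18, Bcs1l, Lyrm7, Nubpl and Sdhaf1) and for 4 in the lower (Gabpa, Cox11, Sco1 and Taco1), against the 11.8% and 11.1% above. Gabpa, a subunit of the factor also known as NRF2, was at 133 and 118 CPM against 88.4 and 112 (−0.33 ± 0.22 SE). Fibroblast markers, all 7 above 0 with a median of 1.74, summed to 195 and 76.4 CPM in WT_Cul and 247 and 120 in KO_Cul; their part was not tested.

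In differentiating cells, again none of 91 tested members was called between KO_Diff and WT_Diff (0% of 14482 genes), and none had an unadjusted p under 0.05 (0.186% of all genes; DESeq2 called none either). The median log2 change was −0.19 against −0.01 over all genes, and 74 of 91 estimates were below 0 (50.8% over all genes). The groups did not overlap for 1 member in the higher direction (background 6.39%), Ndufs1, at 229 and 221 CPM in WT_Diff and 258 and 345 in KO_Diff (log2 change 0.42 ± 0.38 SE). In the lower direction there were 2 (background 6.85%), both complex I assembly factors. Ndufaf2 had 25.6 and 26.6 CPM against 21.8 and 17.6 (−0.40 ± 0.39 SE), and Ndufaf4 68.1 and 74.8 against 60.9 and 63.2 (−0.20 ± 0.33 SE).

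As for the muscle forms, library 1 exceeded library 0 in both genotypes, in 90 of 91 members in WT_Diff (median 2.16-fold) and in 88 of 91 in KO_Diff (1.68-fold). Cox4i1, for example, gave 318 and 833 CPM for WT_Diff, 345 and 609 for KO_Diff. The direction of the median turned with the libraries used. Within index 0 it was 0.05 (54 above 0, 37 below), within index 1 −0.30 (15 above, 76 below), and without WT_Diff 1 it was 0.47. No gene of the 4 pathway lists was called. The groups did not overlap for Atpif1, Slc25a5, Ssbp1 and Atpaf1 in the lower direction and for Cox15, Esrrb, Lrpprc and Polg2 in the higher, against the 6.85% and 6.39% above. Atpif1, the inhibitor of ATP synthase, was at 141 and 206 CPM in WT_Diff and 116 and 114 in KO_Diff (log2 change −0.59 ± 0.38 SE). Fibroblast markers, all 7 above 0 with a median of 1.09, summed to 418 and 282 CPM in WT_Diff and 699 and 589 in KO_Diff. Endothelial markers, 6 of 7 above 0 with a median of 1.33, were low. They summed to 10.1 and 2.66 CPM in WT_Diff and 10.6 and 4.63 in KO_Diff. Of 11 myofibre genes, 10 were above 0 with a median of 0.94. The part of all these markers was not tested.

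Whether the KO effect differed between states was tested in 1 fit over the 14 FI, Cul and Diff libraries. None of 92 members was called in any of the 3 contrasts (0% of 16698 genes; DESeq2 called none either), and none reached an unadjusted p under 0.05 (1.17% of all genes for Cul against FI, 1.26% for Diff against FI, 1.47% for Diff against Cul). Median differences in the KO effect were 0.33 for Cul minus FI, 0.11 for Diff minus FI and −0.26 for Diff minus Cul on the log2 scale. The KO effect thus did not differ past the threshold between states for any single member, and the medians themselves were not tested. These contrasts share libraries with the comparisons above.

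Most members have short transcripts: 84.6% to 85.7% of those tested lay in the shortest 20% of genes, by a relative length taken from the ratio of fragments to FPKM. Over the shortest 20% of all genes the median log2 change was −0.12 in KO_FI, 0.10 in KO_Cul and −0.19 in KO_Diff, each against WT. In WT_Cul against WT_FI it was 0.84. The members' medians were −0.23, 0.09, −0.19 and 1.20 in the same order. In WT_FI 1 of the FI table the members stood 0.44 above their table mean (median log2) and the shortest 20% of all genes 0.24. In WT_Diff 1 the values were 0.61 and 0.38, and in WT_Cul 0 of WT states 1.36 and 0.91. KO_Diff 1 differed, with 0.32 for the members and 0.03 for the shortest genes. Within index 1 the shortest genes' median log2 difference was −0.34 in Diff and 0.33 in WT states (members −0.30 and 0.31). Within index 0 it was −0.02 and 1.09 (members 0.05 and 1.68). In FI it was −0.20 within index 1 and −0.06 within index 2 (members −0.40 and −0.17). With the length trend of each library taken out, an alternative added after seeing the data, the median log2 change was −0.11 in KO_FI, 0.01 in KO_Cul, 0.11 in KO_Diff and 0.20 in WT_Cul against WT_FI.

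**Figure D4:**
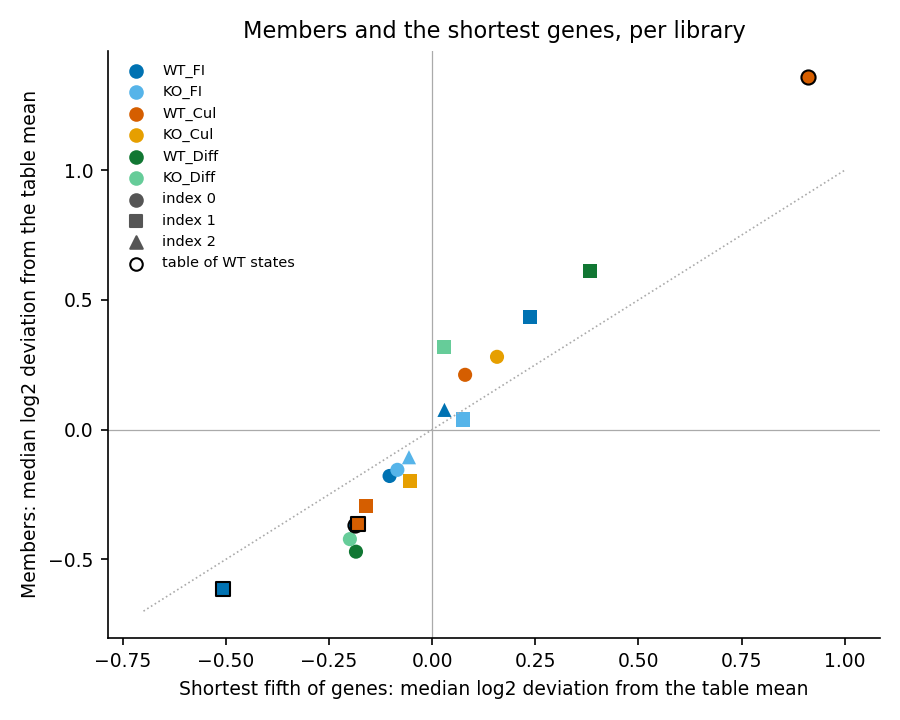
Each point is 1 library, with the median log2 deviation from its table's mean for the shortest 20% of all genes (x) and for the members (y); colour gives the group, shape the index, and a black edge the WT states table. WT_Cul 0 of WT states is farthest out on both axes (0.91 and 1.36), while KO_Diff 1 is high for the members (0.32) and near 0 for short genes (0.03).

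For 13 members the counts were very low in certain libraries whatever the group. Atp5g1, Atp5g2, Atp5h, Atp5l, Cox5b, Cox7c, Cycs, Ndufa12, Ndufab1, Ndufb4, Ndufs3, Ndufs5 and Uqcrb were over 3-fold lower in library 0 than in the mean of libraries 1 and 2 of the FI table in both genotypes. This was 13.8% of members against 3.55% of all tested genes; the rule was set after seeing these values. Cycs gave 1.48, 98.1 and 89.9 CPM for WT_FI, 1.53, 57.4 and 62.1 for KO_FI. Atp5g2 gave 0.0528, 227 and 141 CPM, then 0.0291, 147 and 139. The WT_Cul mean of each of the 13 was also lower in WT states than in the Cul table: 9.58 against 416 CPM for Cycs, 0.163 against 258 for Atp5g2 and 10.3 against 21.7 for Ndufs5. Single libraries could lie close, as Ndufs5 was at 17.8 CPM in WT_Cul 0 of WT states and 18.3 in WT_Cul 1 of the Cul table.

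Library 0 of both FI groups and the 4 WT states libraries also shared a trait of the counting, since 7.23% to 8.18% of their fragment values above 0 were not whole (tolerance 0.01), against 1.42% to 2.82% in the other libraries. RefSeq names a pseudogene for 7 of the 13 members, Ndufab1 among them, and for 3 of the other 81; it names none for Atp5g1 or Atp5g2. The part of near-identical copies and of the counting in these values was not tested, and the levels of the 13 are treated as uncertain. Without the 13, 2 of 79 members rose (Cox5a and Ndufaf4) and 2 fell in WT_Cul against WT_FI, with a median log2 change of 1.20, and the KO medians were −0.21 in FI, 0.09 in Cul and −0.19 in Diff.

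**Figure D5:**
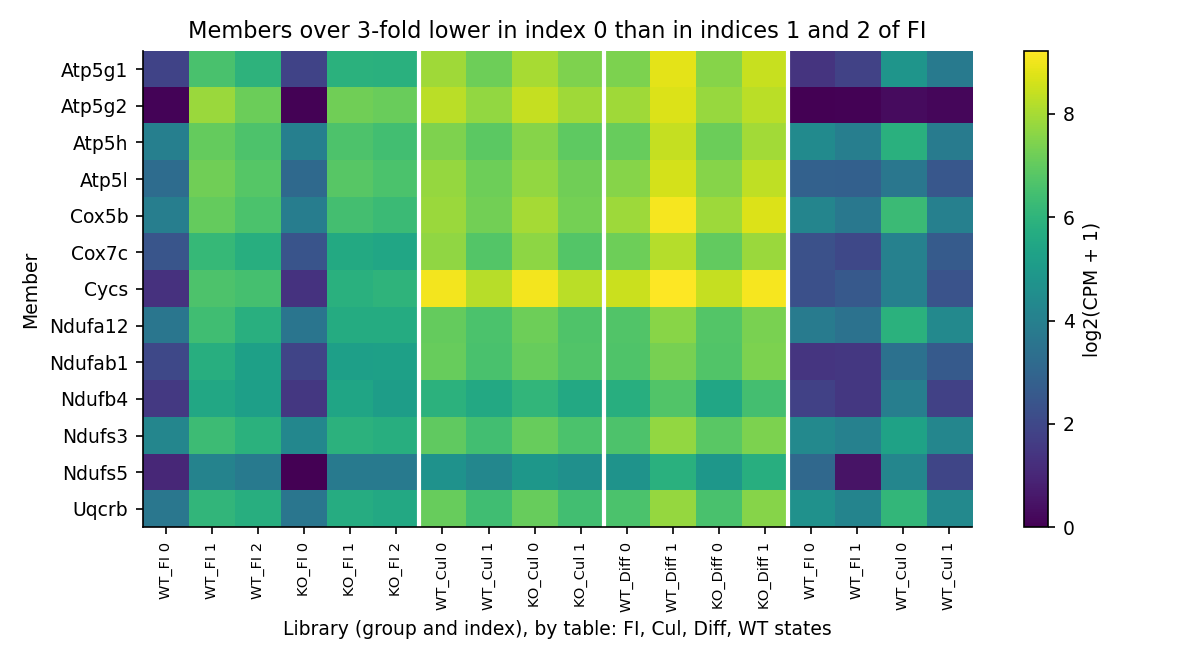
A heat map of log2(CPM + 1) for the 13 members over 3-fold lower in library 0 than in libraries 1 and 2 of the FI table, with the 18 libraries in columns and tables divided by white lines. Library 0 of WT_FI and KO_FI is dark, as for Cycs (1.48 against 98.1 and 89.9 CPM in WT_FI), and so are most cells of WT states, less so in its WT_Cul 0.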

How the data were processed

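Expression was read from 4 deposited tables that list each gene per library, and 10 ChIP and input samples were not analysed here. The submitters' processing notes name Bowtie, TopHat, Cuffdiff, SICER and mm9, without versions or which tool made which file. Per the file headers, the authors deposited, for each gene and library, an estimated count of fragments before scaling and the FPKM (fragments scaled by gene length and library size). The estimated counts were rounded and tested per table with edgeR 4.0.16 in R 4.3.3 (TMM scaling, its filter on low counts, robust quasi-likelihood F test, Benjamini-Hochberg adjustment over all genes tested, threshold 0.05). SE is the size of the log2 change divided by the root of F. Genes without an OK status (12 to 27 per table, 0 members) were left out. No library repeated another (lowest chi-square per degree of freedom 26.77 within a group).

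The tables' indices are not tied to the labels' replicate numbers. In the FI table libraries with the same index deviated together (correlations 0.866, 0.683 and 0.583 across genes). Index 0 against the other indices gave −0.538 to −0.769. KO_FI 2 with WT_FI 1 gave 0.536 and KO_FI 1 with WT_FI 2 gave 0.348, so a pairing within indices 1 and 2 is not established. The labels give no pairing either. The fit with the index as a block called 0 members too. Columns labelled A were taken as Cul, since every other state was accounted for. Members, gene lists and tests were chosen with earlier results of these data known. Named genes were the 4 members of smallest p per class and comparison, the paired forms, the c subunit genes, Sdha, Atp5b and Cycs; of each pathway list, up to 4 of smallest p; others were named after their values were seen. Alternatives were DESeq2 1.42.0, its size factors, no filter, limma 3.58.1 on log2(FPKM + 1), a block, left-out libraries, joined WT tables and a length trend. The fits were tested on simulated data in which few genes were changed. In Diff and in WT_Cul against WT_FI the test recovered none of the changes put in, and elsewhere mainly the larger ones. In the real WT_Cul against WT_FI, 12.6% of genes rose and 16% fell, so that recovery does not carry over to this comparison.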

Additional observations from a re-analysis of the deposited data

Results flagged for a closer look

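The share of fragments per class and the share of an alternative form in its pair were examined in 30 sets of 4 or 5 libraries of a group, joined over tables. In 3 sets, all of the second kind, 1 library lay far from the others; chance gives about 1 in 20. The Cox6a2 share was 0.393% in WT_FI 0 of the WT states table and 0.18% to 0.214% in the other WT_FI libraries. The Cox7a1 share was 9.07% in WT_Cul 0 of the WT states table and 1.16% to 2.28% in the other WT_Cul libraries. The Ndufa4l2 share was 21.8% in WT_FI 1 of the FI table and 41.7% to 47.0% in the other WT_FI libraries. No member separated the genotypes in opposite directions in different states.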

How the results depend on the processing

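No alternative called a member in a KO comparison, which says little about stability, since the test seldom passes its threshold at the spread of these libraries. The median log2 change ranged over left-out libraries from −0.34 to 0.0086 in KO_FI against WT_FI, from −0.19 to 0.35 in KO_Cul and from −0.62 to 0.47 in KO_Diff. In WT_Cul against WT_FI, 6 members were called, against 20 with DESeq2, 13 (8 higher and 5 lower) with the length trend and 51 with all WT libraries of the 3 tables joined. Leaving out 1 library gave 3 to 73 calls and medians from 0.10 to 1.84, with 3 calls without either WT_FI library, 73 without WT_Cul 1 and 8 without WT_Cul 0. The length trend gave a median of 0.20. With the table index as a replicate block, 22 members were called in WT_Cul against WT_FI, and the block changed no other count. Libraries with the same index deviated together in these tables too (correlations 0.732 in Cul, 0.787 in Diff, 0.387 in WT states). The main fits leave the index out, so such shared shifts count there as spread. With 2 libraries a group each correlation rests on a single split, and the labels do not say what the indices pair. Cox4i2 and Ndufa4l2 fell under every alternative run. Atp5g1 was lost without WT_FI 0 and in the joined fit, Cox5a without either WT_FI library and with limma, Ndufaf4 without either WT_FI library, and Ndufab1 without either WT_FI library or WT_Cul 0, in the joined fit, with DESeq2 size factors and with the length trend. The cause was not tested.

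Single genes changed direction, none past the threshold unless stated. In KO_Cul, leaving out 1 library gave Uqcrc1 −0.15 to 0.50, Sdhc −0.0097 to 0.19 and Atp5d −0.078 to 0.39. In KO_Diff it gave Ndufa4 −0.58 to 0.057, Atp5g2 −0.66 to 0.15, Uqcrq −0.88 to 0.55 and Sdha −0.014 to 0.51, and the length trend gave Ndufa4 0.015 and Uqcrq 0.063. In WT_Cul against WT_FI, Cox7a1 was −0.54 with limma, −0.55 with the replicate block and −1.92 with the length trend, and Sdhc −0.0099 with limma. The length trend also gave Cox4i1 −0.092, Cox6a1 −0.27, Cox8a −0.37, Cox8b −0.88 and Sdhc −0.56. Leaving out 1 library gave Cox6a2 −0.16 to 4.52, Cox4i1 −0.026 to 1.66, Cox6a1 −0.24 to 1.87, Cycs −0.10 to 1.78, Cox8a −0.56 to 1.86, Cox8b −4.47 to 3.50, Sdhc −0.62 to 0.62 and Cox7a1 −2.69 to 1.30, each lowest without WT_Cul 0, where Cox7a1 had an edgeR adjusted p of 0.0199. Of the named genes' other values, 512 kept direction and side of the threshold, 76 passed it only in the alternative and 13 lost it. Depth limits the members at or near 0 (Cox7b2, Cox8c).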
